A study of Macaca mulatta with 24 samples.

Results

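The effect of testosterone in animals fed a Western-style diet was measured by comparing omental white adipose tissue (WAT), a visceral fat depot, between the T + WSD group and the WSD group, with 6 libraries on each side. These 12 libraries were chosen by their group labels from the 24 libraries of the series, and 15207 of the 32386 genes in the count table had enough counts to be tested. All animals were female rhesus macaques (Macaca mulatta), with a labelled age of 4 years, while the study's methods give a somewhat higher age at biopsy. Both groups ate the high-fat Western-style diet for 3 years. The T + WSD animals carried implants that released testosterone over the same 3 years, as a model of hyperandrogenemia, and the WSD animals carried cholesterol implants as the control. The other 2 groups, on monkey chow with testosterone implants (T) or cholesterol implants (C), entered the same fit and are described only where they bear on the comparison. Each library came from a biopsy of 1 animal, and the study had picked the 6 animals of each group because they reflected the findings in its larger cohort. The p-values therefore refer to these selected animals and not to a random draw from the cohort. The spread behind them was estimated from all 24 libraries, with the chow groups included.

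Testosterone is a steroid hormone that acts on cells by changing transcription, and fat cells can also convert it into other sex steroids. Visceral adipose tissue stores triglyceride in adipocytes, makes fatty acids from glucose, and contains macrophages, vessels and a mesothelial surface layer besides its fat cells. Mitochondria of adipocytes burn fuel in the TCA cycle and respiratory chain, and also export citrate, the carbon source from which the cytosol makes fatty acids and cholesterol.

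The totals ran from 6899185 to 21015713 counts per library in T + WSD (median 20501758) and from 9006135 to 23839192 in WSD (median 22389113). WSD replicates 19 and 20 and T + WSD replicates 7 and 8 devoted 26.7% to 54.7% of their counts to ENSMMUG00000038258, which has no symbol, and the other 8 libraries 0.945% to 2.41%, so each group held 2 libraries of this kind. WSD replicates 20 and 24 stood apart from the other WSD libraries in the mitochondrial genes described below. Adipocyte markers were high throughout: their summed level was 9969 to 24130 CPM in WSD and 14240 to 22010 CPM in T + WSD, with ADIPOQ at 382 to 1827 CPM and 779 to 1722 CPM. FABP4, an adipocyte fatty acid binding protein, was an exception at 0.937 to 3.26 CPM over all 12 libraries. That level is of the identifier ENSMMUG00000020987, and whether all reads of the gene were counted there was not tested. CPM are counts divided by the library size, scaled by the trimmed mean of M-values (TMM), and multiplied by 1000000. They are not divided by gene length, so they compare libraries and not genes.

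In T + WSD compared with WSD, 124 genes were called, which required a change of more than 1.5-fold and an adjusted p under 0.05 (edgeR's quasi-likelihood F-test with Benjamini-Hochberg adjustment), which is 0.815% of the genes tested. Of these, 66 were higher (0.434%) and 58 lower (0.381%). Without the fold threshold, 254 genes passed, 111 of them higher and 143 lower. The genes that rose included the calcium release channel RYR2, the giant sarcomere protein TTN, the Wnt amplifier RSPO3 and the ferritin light chain FTL. Among those that fell were enzymes of mitochondrial respiration, lipid and sterol synthesis, and the lipid transfer protein CETP. At an unadjusted p under 0.05, 1202 genes were higher (7.9%) and 1837 were lower (12.1%), while the median log2 fold change of all genes was -0.03.

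**Figure D1:**
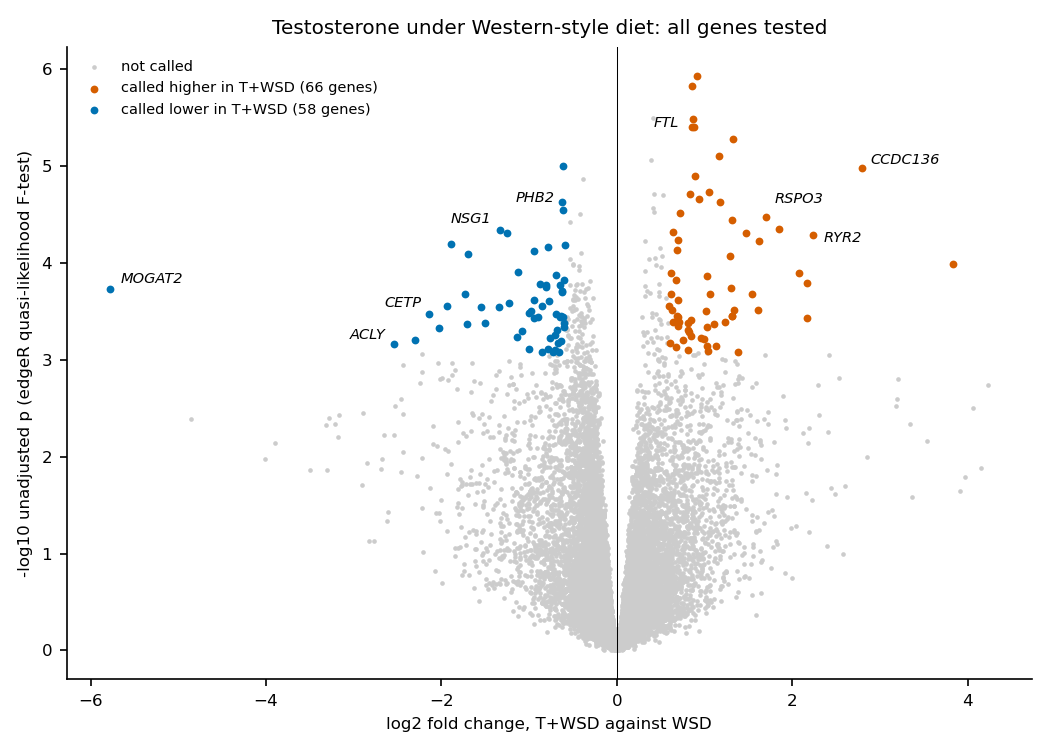
Each point is a tested gene, with the log2 fold change of T+WSD against WSD on the horizontal axis and -log10 of the unadjusted p of edgeR's quasi-likelihood F-test on the vertical axis. The 66 genes called higher (orange) and 58 called lower (blue) lie at the top on both sides, and 1 called gene with no counts in the T+WSD libraries is not drawn.

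The 12 libraries were also compared as a whole. Over the 500 genes that varied most, the pseudo-F, the ratio of distances between the groups to distances within them, was 2.31 (one-sided exact permutation test, p = 0.0195 over 924 splits, of which the smallest possible p is 0.00216). The T + WSD libraries lay above every WSD library in 223 of all genes tested (1.47%) and below every one in 209 (1.37%). Among the called genes this was so for 45 of the 66 that rose and 31 of the 58 that fell, counts that share their measurements with the call itself. When only the 12 libraries were fitted, without the chow groups, 46 genes were called, 42 higher and 4 lower. The number of calls also depended on single libraries: it was 19 without WSD replicate 20, 9 without WSD replicate 24 and 448 without WSD replicate 21. With WSD replicates 20 and 24 both left out, none of the genes was called by edgeR and 1746 had an unadjusted p under 0.05. Those of the 124 genes that this fit tested kept the sign of their fold change, which is not independent of their selection from the same libraries.

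The largest increases among genes with a symbol and no overlap between groups were found for CCDC136, a coiled-coil protein, and RYR2, the ryanodine receptor that releases calcium from intracellular stores. CCDC136 was at 0.407, 1.32 and 2.21 CPM (lowest, median and highest) in WSD and at 3.26, 6.29 and 27.98 CPM in T + WSD. Every T + WSD library was above every WSD library, although T + WSD replicate 8 was far above the other 5. The log2 fold change was 2.79 ± 0.50 (SE), a 6.93-fold increase (edgeR, adjusted p = 0.0145). RYR2 had 0.956, 2.49 and 3.91 CPM in WSD and 8.00, 11.4 and 18.9 CPM in T + WSD. The groups were separated by a gap, and the log2 fold change was 2.24 ± 0.45 (SE; edgeR, adjusted p = 0.0232).

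TTN, which encodes titin, the spring of the muscle sarcomere, had 74.4, 126 and 205 CPM in WSD and 305, 356 and 619 CPM in T + WSD. Again all 6 T + WSD libraries were higher, with T + WSD replicate 10 the highest (log2 fold change 1.55 ± 0.35, SE; edgeR, adjusted p = 0.0343). Other genes of striated muscle were then looked up after these values were seen. Of a list of 19 such genes, 13 were tested and TNNT3, a fast troponin T, was the 1 called member (log2 fold change 1.03, adjusted p = 0.0471). At an unadjusted p under 0.05, 8 of the 13 were higher and 1 was lower (TNNT1), against 7.9% and 12.1% of all genes. The median log2 fold change of the list was 0.98, and its summed level overlapped between WSD (70.3 to 121.7 CPM) and T + WSD (74.7 to 158.5 CPM). ACTA1, the skeletal muscle actin, was at 0 to 1.96 CPM in WSD. In T + WSD it was at 0.120, 0 and 0.124 CPM in replicates 7, 8 and 9, and at 28.7, 10.4 and 3.58 CPM in replicates 10, 11 and 12. In the 3 libraries where ACTA1 was near 0, TTN was at 306, 318 and 405 CPM and RYR2 at 12.7, 11.02 and 8.00 CPM, all above every WSD library, and the summed muscle list was at 113.7, 82.3 and 104.3 CPM, within the range of WSD. Much of that sum came from ACTN3 (24.4 to 74.8 CPM in WSD, 21.8 to 50.05 CPM in T + WSD) and TNNT3 (11.5 to 33.0 CPM and 21.5 to 54.3 CPM). Both were also present where ACTA1 was near 0, so the sum cannot show how much muscle tissue a library held. The part of muscle tissue in the TTN and RYR2 values was not tested. CRYAB, a small heat shock protein of muscle and other tissues, was also called higher, with a log2 fold change of 2.17 ± 0.52 (SE; adjusted p = 0.037). It had 29.3, 46.3 and 202 CPM in WSD and 144, 321 and 446 CPM in T + WSD, so the groups overlapped. CRYAB and TNNT3 were chosen for mention after their values were seen.

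Of the 21 calcium channels and pumps tested, RYR2 was the only one called, and the median of the list was 0.11. The other ryanodine receptors had log2 fold changes of 0.58 (RYR1) and 1.28 (RYR3), the muscle calcium pump ATP2A1 had 3.53 (adjusted p = 0.103) and the calcium channel subunit CACNA2D1 had 1.07 (adjusted p = 0.0716). None of these 4 passed the adjusted threshold in edgeR's test.

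Among secreted factors, RSPO3, an R-spondin that strengthens Wnt signals at the cell surface, had 5.76, 6.97 and 12.95 CPM in WSD and 14.4, 21.3 and 50.0 CPM in T + WSD. The groups did not overlap (log2 fold change 1.71 ± 0.33, SE; edgeR, adjusted p = 0.0196). With the mean level of the mesothelial markers as a covariate, its log2 fold change was 0.96. SCUBE3, a secreted glycoprotein that can act as a TGF-beta coligand, had 3.16, 4.33 and 5.54 CPM in WSD against 6.19, 9.73 and 12.7 CPM in T + WSD (log2 fold change 1.13 ± 0.29, SE; adjusted p = 0.0471). GNRH1, the precursor of the hypothalamic hormone that drives gonadotropin release, was low in both groups. It had 0.422, 0.775 and 1.08 CPM in WSD and 1.41, 1.94 and 3.33 CPM in T + WSD, again without overlap (log2 fold change 1.47 ± 0.30, SE; adjusted p = 0.0227).

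Of the 22 Wnt pathway genes tested (median -0.18), only TCF7L2, a nuclear partner of beta-catenin, was called. It had 6.19, 8.47 and 9.22 CPM in WSD and 9.15, 11.9 and 15.8 CPM in T + WSD, and 5 of the 6 T + WSD libraries were above all WSD libraries (log2 fold change 0.60 ± 0.14, SE; adjusted p = 0.0367). At an unadjusted p under 0.05, LRP6, a Wnt co-receptor, was also higher, and 7 members were lower, against 12.1% of all genes. Among the lower ones were the ligand WNT3 (log2 fold change -1.17, adjusted p = 0.0769) and the secreted inhibitor DKK1 (-1.35, adjusted p = 0.0894).

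FTL, the light chain of the iron store ferritin, was at 310.2, 370.2 and 492.8 CPM in WSD and at 541, 680 and 850 CPM in T + WSD. The separation was complete, and the log2 fold change was 0.85 ± 0.14 (SE; edgeR, adjusted p = 0.00994, the smallest of all genes). FTH1, the heavy chain, had 126, 175 and 203 CPM in WSD and 180, 242 and 388 CPM in T + WSD, but did not pass (log2 fold change 0.58, adjusted p = 0.0675). The list of 16 ferritin and iron genes had a median of 0.06 with FTL as its only called member. HMOX1, which breaks down heme, was at a log2 fold change of 1.11 (adjusted p = 0.165).

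The smallest adjusted p was shared with ABCC5 and INPP5F, which lay outside the rule for named genes and were chosen after their values were seen. ABCC5, an exporter of cyclic nucleotides and organic anions, had 19.1, 20.7 and 26.8 CPM in WSD and 34.1, 43.4 and 46.4 CPM in T + WSD (log2 fold change 0.91 ± 0.14, SE). INPP5F, a phosphoinositide phosphatase, had 37.9, 53.1 and 61.2 CPM in WSD and 72.2, 98.8 and 106 CPM in T + WSD (log2 fold change 0.85 ± 0.13, SE). Neither gene overlapped between the groups. Together with FTL, TDRD6 and 3 genes without a symbol (ENSMMUG00000037542, ENSMMUG00000044712 and ENSMMUG00000047687), these were among the 8 genes called in each of the 24 fits that left out 1 library. None of these was called in the libraries where ENSMMUG00000038258 took no more than 5% of the counts, without WSD replicates 20 and 24, or with the mesothelial covariate. TDRD6, a Tudor domain protein best known from germ cells, was at 1.08, 1.51 and 2.81 CPM in WSD and at 3.67, 4.08 and 4.18 CPM in T + WSD (log2 fold change 1.18 ± 0.22, SE; adjusted p = 0.0179).

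Some of the remaining increases were in genes at a low level. SNCG, a synuclein found in neurons and adipocytes, had 1.36, 3.58 and 3.94 CPM in WSD and 3.95, 6.69 and 9.52 CPM in T + WSD, so that the highest WSD and lowest T + WSD libraries nearly met (log2 fold change 1.11, adjusted p = 0.037). TNFRSF25, a death receptor of the tumor necrosis factor family found on lymphocytes, had 2.25, 3.56 and 5.42 CPM against 6.19, 7.38 and 8.00 CPM (log2 fold change 1.06, adjusted p = 0.0343). ABCG4, a sterol transporter, had 0.208, 0.415 and 0.803 CPM against 0.907, 1.11 and 1.46 CPM (log2 fold change 1.32, adjusted p = 0.037). One copy of the signal recognition particle RNA (Metazoa_SRP, ENSMMUG00000040696) rose from 0.208, 0.338 and 0.542 CPM to 0.848, 1.01 and 1.54 CPM (log2 fold change 1.61, adjusted p = 0.037). This value is uncertain, since 566 identifiers of the table carry that name and near-identical copies share reads. Of the 233 copies tested, 211 had positive fold changes, with a median of 0.59 on the log2 scale, and 1 was called.

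**Figure D2:**
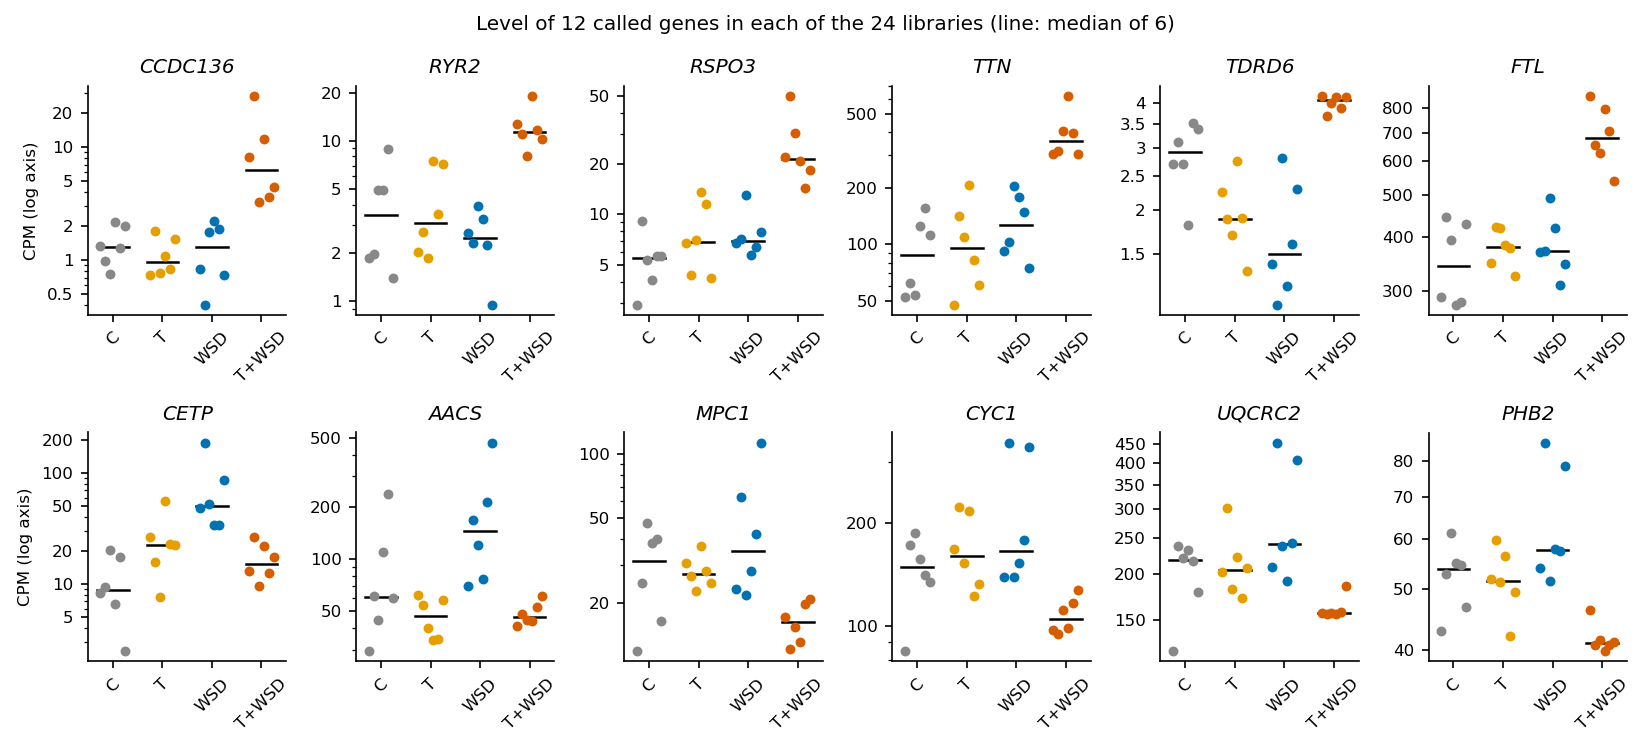
CPM on a log axis for 6 genes that rose and 6 that fell in T+WSD against WSD, in each of the 24 libraries (points, grouped as C, T, WSD and T+WSD, with the median of 6 as a line). In each panel the T+WSD points lie wholly above or wholly below the WSD points, and 1 or 2 WSD libraries lead the panels of MPC1, CYC1, UQCRC2 and PHB2.

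Among the gene lists, the respiratory chain held the most called genes. Of its 44 genes tested, 5 fell, against 0.381% of all genes, and none rose. All 44 had a negative fold change, and 39 had an unadjusted p under 0.05 against 12.1% of all genes in that direction. The median log2 fold change was -0.58. CYC1, a cytochrome of complex III, had 139, 166 and 340 CPM in WSD and 95.0, 105 and 127 CPM in T + WSD (log2 fold change -0.98 ± 0.23, SE; edgeR, adjusted p = 0.037). UQCRC2, a core protein of the same complex, had 191, 241 and 454 CPM against 155, 157 and 185 CPM (-0.85 ± 0.20, adjusted p = 0.0367). For both, every T + WSD library was below every WSD library, and the T + WSD libraries lay close together. The complex II subunits SDHA (-0.73, adjusted p = 0.0496) and SDHD (-0.67, adjusted p = 0.0455) also fell, without overlap between the groups.

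In the TCA cycle and pyruvate list, 3 of 26 tested genes fell, against 0.381% of all genes, none rose and all 26 fold changes were negative (median -0.63). MPC1, a subunit of the carrier that admits pyruvate into mitochondria, had 21.7, 35.0 and 113 CPM in WSD and 12.2, 16.2 and 20.8 CPM in T + WSD. The groups did not overlap, with a log2 fold change of -1.55 ± 0.36 (SE; edgeR, adjusted p = 0.037). PDHB, a subunit of pyruvate dehydrogenase, had 98.8, 119 and 218 CPM against 74.2, 80.2 and 92.3 CPM (-0.78 ± 0.16, adjusted p = 0.0261). PDHA1, its partner, had -1.11 (adjusted p = 0.0558). SDHA, which belongs to this cycle as well as to the respiratory chain, was the third called member.

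Called genes beyond these lists included 16 others that encode mitochondrial proteins, picked after their values were seen, with log2 fold changes from -1.70 to -0.60. They comprised carriers (SLC25A1, SLC25A10, SLC25A43), import proteins (TIMM44, TOMM40), translation factors and transfer RNA synthetases (TUFM, SARS2, CARS2, MRPS18C), coenzyme Q enzymes (COQ6, COQ8A), complex I assembly factors (NDUFAF4, ECSIT), the RNA-binding protein LRPPRC, the chaperone DNAJA3 and the desulfurase NFS1. In 11 of the 16 no library overlapped between the groups, as in 31 of all 58 genes that fell and 1.37% of all genes tested, and this shares its measurements with the call. COQ6, a hydroxylase of coenzyme Q synthesis, had 33.4, 39.7 and 66.9 CPM in WSD and 22.95, 25.98 and 32.9 CPM in T + WSD (-0.81 ± 0.18, SE; adjusted p = 0.0343).

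In fatty acid oxidation, the breakdown of fatty acids in mitochondria, none of the 21 genes tested was called by edgeR, and the median was -0.41. At an unadjusted p under 0.05, 8 were lower, against 12.1% of all genes, and none was higher. PPARGC1A, a coactivator of mitochondrial genes, had a log2 fold change of -0.99 (adjusted p = 0.0984) and the isomerase ECI1 had -0.72 (adjusted p = 0.0601). In glycolysis, PFKL, a subunit of phosphofructokinase, fell from 143, 200 and 310 CPM to 107, 128 and 143 CPM, while the median of the 16 tested genes was -0.31. PFKL had a log2 fold change of -0.70 ± 0.15 (SE; adjusted p = 0.0328), and 3 others had an unadjusted p under 0.05 in the same direction (PFKM -0.49, GAPDH -0.74 and LDHA -0.40).

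**Figure D3:**
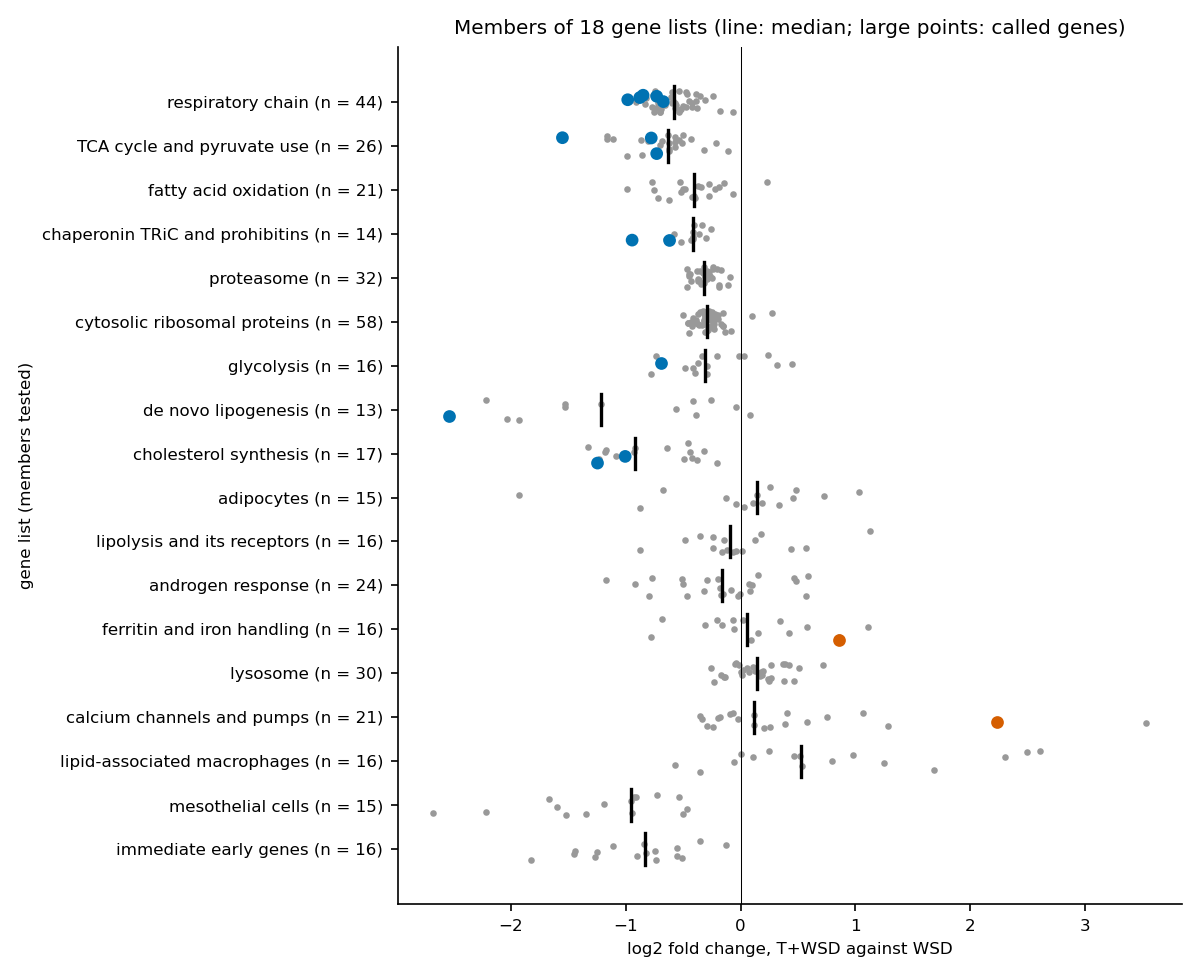
The log2 fold change of T+WSD against WSD for each tested member of 18 gene lists (points), with the list's median as a line and called genes as large points. All members of the respiratory chain, TCA cycle, cholesterol synthesis and mesothelial lists lie below 0, whereas the adipocyte, lipolysis, androgen response, ferritin and calcium lists are spread on both sides.

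The mitochondrial difference was not carried evenly by the WSD libraries. The mean log2 CPM of the respiratory chain list was 5.80, 6.89, 6.08, 5.89, 6.16 and 6.72 in WSD replicates 19 to 24 and 5.69, 5.75, 5.69, 5.71, 5.74 and 5.85 in T + WSD replicates 7 to 12. The T + WSD animals thus lay within a narrow band at the low end of the WSD values, which overlapped only through the lowest WSD library, and WSD replicates 20 and 24 were the 2 highest. Without these 2 libraries, the median log2 fold change of the members was -0.24, compared with -0.29 for the TCA cycle and pyruvate list and -0.12 for fatty acid oxidation. In the 16 libraries of the series in which ENSMMUG00000038258 took little of the counts, the medians were -0.48, -0.54 and -0.27, and edgeR called 0 genes there, with 1911 at an unadjusted p under 0.05.

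Another list held the cytosolic chaperonin TRiC, which folds actin and tubulin, the prohibitins and mitochondrial chaperones. Of its 14 genes tested 2 fell, against 0.381% of all genes. All 14 had an unadjusted p under 0.05 and lower levels, against 12.1% of all genes (median -0.41). HSPA9, the mitochondrial HSP70, had 219, 283 and 506 CPM in WSD and 158, 169 and 190 CPM in T + WSD (-0.95 ± 0.20, SE; edgeR, adjusted p = 0.0268). PHB2, a prohibitin of the inner mitochondrial membrane, had 51.5, 57.7 and 85.4 CPM against 39.8, 41.0 and 46.3 CPM (-0.62 ± 0.12, adjusted p = 0.0179). In both the groups were separate. On the log2 CPM scale the list mean was 6.60 ± 0.0683 (SD, n = 6) in T + WSD compared with 7.06 ± 0.249 in the 6 WSD libraries, with no overlap, and the median fold change was -0.31 without WSD replicates 20 and 24. The TRiC subunits CCT8 (-0.41, adjusted p = 0.0275) and CCT3 (-0.43, adjusted p = 0.0312) passed the adjusted p but not the fold threshold.

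Among 20 general chaperones and genes of the unfolded protein response, none was called and the median was -0.20. At an unadjusted p under 0.05, 3 were lower, against 12.1% of all genes. None of the 32 proteasome genes was called, and the median was -0.32. At an unadjusted p under 0.05, 21 were lower, against 12.1% of all genes, and none was higher. PSMD8 (-0.46, adjusted p = 0.0344) and PSMD6 (-0.36, adjusted p = 0.0344), subunits of the regulatory cap, passed the adjusted p alone. Of the 58 cytosolic ribosomal protein genes none was called, and 34 were lower at an unadjusted p under 0.05, against 12.1% of all genes. The median was -0.29, with RPS2 at -0.45 (adjusted p = 0.037) and RPS25 at -0.46 (adjusted p = 0.0458). Ribosomal protein genes have many near-identical copies, and reads shared with them make these values less certain.

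The lipid-making genes had larger but more variable differences. De novo lipogenesis turns citrate into fatty acids. Of its 13 tested genes 1 was called lower, against 0.381% of all genes. At an unadjusted p under 0.05, 7 were lower, against 12.1% of all genes, and the median was -1.22. ACLY, which splits citrate into acetyl-CoA, had 326, 1359 and 3575 CPM in WSD and 133, 212 and 584 CPM in T + WSD. Of the T + WSD libraries 5 were below all WSD libraries, and the log2 fold change was -2.54 ± 0.65 (SE; edgeR, adjusted p = 0.0457). FASN, the fatty acid synthase, had 7081, 10107 and 30577 CPM in WSD and 1585, 3227 and 4259 CPM in T + WSD. No library overlapped, yet the adjusted p was 0.0601 (log2 fold change -2.22 ± 0.61, SE). ME1, which supplies NADPH, had -2.03 (adjusted p = 0.0541), PNPLA3 had -1.93 (adjusted p = 0.0638) and ACACA, the acetyl-CoA carboxylase, had -1.53 (adjusted p = 0.097). The mean log2 CPM of the list was 7.58 ± 1.14 in C and 7.42 ± 0.296 in T (SD, n = 6). It was 8.49 ± 0.668 in WSD and 7.53 ± 0.237 in T + WSD, so that WSD had the highest mean.

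AACS, which activates acetoacetate in the cytosol for lipid synthesis, had 69.7, 145 and 468 CPM in WSD and 41.1, 46.5 and 61.5 CPM in T + WSD. It fell by 1.93 on the log2 scale with no overlap (SE 0.45; edgeR, adjusted p = 0.0367), and WSD replicate 24 was the highest. SLC2A5, the fructose transporter, had 31.2, 134 and 388 CPM against 11.02, 21.4 and 93.7 CPM, with overlap (-2.30, adjusted p = 0.0437). It was chosen for mention after its values were seen.

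For cholesterol synthesis, 2 of the 17 genes tested were called, both lower, against 0.381% of all genes, 11 were lower at an unadjusted p under 0.05 against 12.1%, and all 17 fold changes were negative (median -0.92). The list mean lay between 4.59 and 5.59 log2 CPM in WSD (4.97 ± 0.433, SD, n = 6). In T + WSD it lay between 4.00 and 4.47 (4.27 ± 0.187, SD, n = 6), below all WSD libraries. On chow the mean was 4.84 ± 0.413 in C and 4.74 ± 0.171 in T (SD, n = 6). TM7SF2, a sterol reductase, had 26.02, 45.4 and 66.7 CPM in WSD and 12.2, 17.4 and 30.9 CPM in T + WSD, where 5 of 6 libraries were below all WSD libraries (-1.25 ± 0.25, SE; adjusted p = 0.0227). NSDHL, a sterol dehydrogenase, had 89.3, 158 and 281 CPM against 71.2, 82.8 and 98.7 CPM, with 4 of 6 below (-1.01 ± 0.26, adjusted p = 0.049). MVD, a decarboxylase of the mevalonate pathway, did not overlap between the groups but was not called (-1.09, adjusted p = 0.0608). Without WSD replicates 20 and 24 the list's median was -0.62, and that of de novo lipogenesis was -0.59.

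CETP, which moves cholesteryl esters between lipoproteins, was the only called member among 15 genes of cholesterol efflux and targets of the liver X receptor, whose median was 0.00. It had 33.8, 50.2 and 186 CPM in WSD and 9.65, 15.3 and 26.6 CPM in T + WSD. All T + WSD libraries were lower (log2 fold change -2.14 ± 0.51, SE; edgeR, adjusted p = 0.037). WSD replicate 20 was far above the rest, and without WSD replicates 20 and 24 the fold change was -1.34. PCYT2, an enzyme of phosphatidylethanolamine synthesis, fell from 56.0, 83.8 and 191 CPM to 36.5, 43.9 and 50.6 CPM (-1.14 ± 0.28, adjusted p = 0.0425).

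Of 17 triglyceride synthesis genes (median -0.21), MOGAT2, a monoacylglycerol acyltransferase, was called at a log2 fold change of -5.77 ± 1.30 (SE; adjusted p = 0.0343). The value rests on 1 library: WSD replicate 21 was at 135.6 CPM, the other WSD libraries at 0 to 1.46 CPM and the T + WSD libraries at 0.129 to 0.707 CPM. Without WSD replicate 21 the log2 fold change was -1.23 (edgeR, adjusted p = 0.196).

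Other called decreases were in genes of separate functions. NSG1, an endosomal protein of neurons, had 14.99, 24.3 and 34.0 CPM in WSD and 5.37, 9.43 and 12.3 CPM in T + WSD, without overlap (-1.33 ± 0.26, SE; adjusted p = 0.0227). XRCC3, which repairs DNA by homologous recombination, had 3.80, 4.67 and 6.47 CPM against 1.98, 2.82 and 3.41 CPM (-0.85, adjusted p = 0.0496). MIF, a cytokine with tautomerase activity, and its close relative DDT were the 2 called members of the 6 tested genes of their family and receptor. Over all genes tested, 0.381% were called lower. MIF had 44.4, 106 and 181 CPM in WSD and 33.9, 44.7 and 62.3 CPM in T + WSD, and only 3 of the 6 T + WSD libraries were below all WSD libraries (-1.23 ± 0.28, SE; adjusted p = 0.0365). DDT had 32.8, 62.1 and 99.9 CPM against 24.9, 28.6 and 40.6 CPM, with 5 of 6 below (-1.13 ± 0.24, adjusted p = 0.032). ENSMMUG00000045920, which has no symbol, had no counts in any T + WSD library and 0.0407 to 6.27 CPM in WSD. It was called lower, but its fold cannot be fixed from counts of 0.

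**Figure D4:**
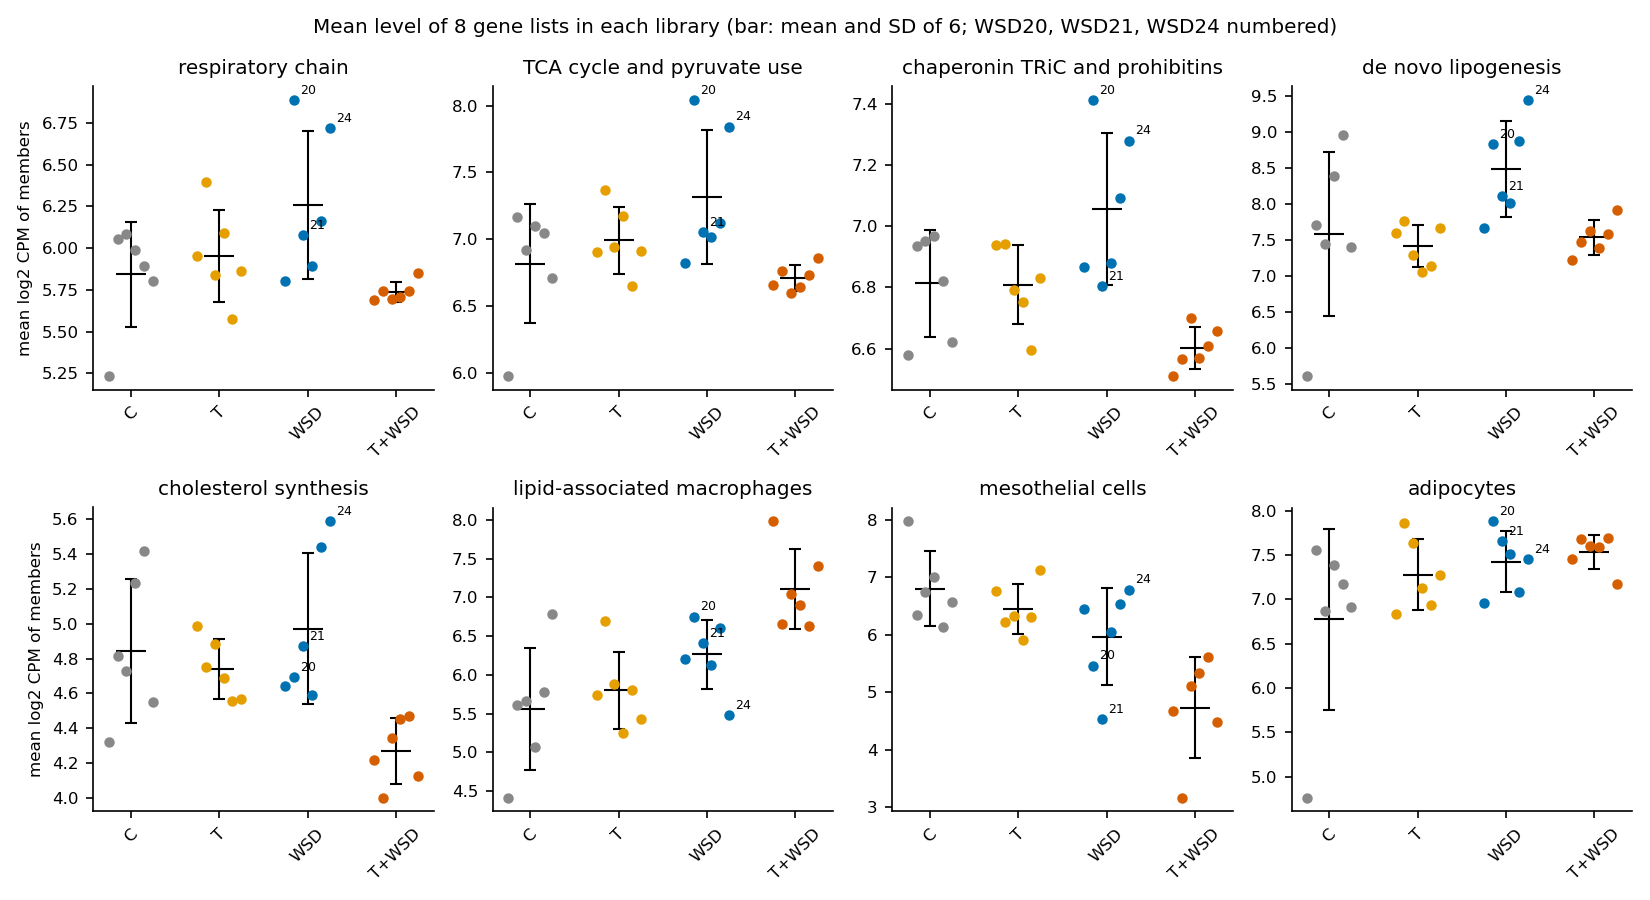
Mean log2 CPM of the tested members of 8 gene lists in each library (points), with the mean and SD of each group of 6, for C, T, WSD and T+WSD; WSD20, WSD21 and WSD24 are numbered. WSD20 and WSD24 are the highest libraries in the respiratory chain, TCA cycle and chaperonin panels, WSD21 is the lowest WSD library in the mesothelial panel, and the T+WSD points of the cholesterol and chaperonin lists lie below all WSD points.

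The tissue contains several cell types, and in bulk RNA fewer cells of a type cannot be told apart from less RNA of that gene per cell. Mesothelial markers, from the lining of the omentum, were lower in T + WSD: all 15 tested had a negative fold change, with a median of -0.95. At an unadjusted p under 0.05, 9 were lower, against 12.1% of all genes, but none was called by edgeR. KRT18, an epithelial keratin, had 6.27, 55.4 and 109 CPM in WSD and 1.13, 11.6 and 26.9 CPM in T + WSD (-2.22, adjusted p = 0.0507), and KRT19 had -1.67 (adjusted p = 0.069). The summed markers reached 1022 to 7133 CPM in WSD and 405 to 3726 CPM in T + WSD, and overlapped. With the mean of this list as a covariate, 1 of the 124 genes remained called (MOGAT2) and 1769 genes had an unadjusted p under 0.05. The medians of the respiratory chain, TCA and cholesterol lists were then -0.70, -0.81 and -0.68. Whether the share of mesothelial cells plays a part in the gene differences was not tested.

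Markers of lipid-associated macrophages, which gather around dying or overfilled adipocytes, pointed upwards in part. At an unadjusted p under 0.05, 6 of 16 tested were higher, against 7.9% of all genes, and 1 was lower (CD9, -0.58), against 12.1%. The median was 0.52 and none was called by edgeR. SPP1, osteopontin, had 3.87, 7.62 and 24.9 CPM in WSD and 15.5, 48.9 and 122 CPM in T + WSD, where 5 of 6 libraries exceeded all WSD libraries (2.30 ± 0.71, SE; adjusted p = 0.0819). ITGAX, the CD11c integrin, had 12.3, 20.6 and 38.1 CPM against 32.8, 54.9 and 150 CPM (1.68, adjusted p = 0.0858). TREM2, the lipid-sensing receptor of these cells, had 1.25 (adjusted p = 0.151) and the chitinase CHIT1 had 2.61 (adjusted p = 0.16). The list mean was 7.10 ± 0.516 log2 CPM (SD, n = 6) in T + WSD compared with 6.26 ± 0.449 in the 6 WSD libraries, with some overlap. The summed level of this list also overlapped, at 9711 to 18710 CPM in WSD and 12090 to 17610 CPM in T + WSD. LPL, also an adipocyte marker, had the highest median of its members in both groups. General macrophage markers had a list mean of 6.07 ± 0.490 log2 CPM (SD, n = 6) in T + WSD and 5.87 ± 0.604 in WSD. They summed to 667 to 1551 CPM in WSD and 816 to 1455 CPM in T + WSD. Their median log2 fold change was 0.18 over 13 genes, and only MSR1 had an unadjusted p under 0.05. Among 30 lysosomal genes (median 0.15), none was called, and MANBA, a lysosomal mannosidase, had a log2 fold change of 0.72 (adjusted p = 0.0514).

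A list of genes known to respond to androgens held no called gene, and called genes outside the list were not searched for androgen targets. Of 24 androgen response genes, none was called by edgeR, the median was -0.16, and at an unadjusted p under 0.05 there were 3 higher members, SLC45A3 (0.59), STEAP4 (0.49) and CAMKK2 (0.46), and 2 lower ones, among them ACSL3 (-0.79). FKBP5, a glucocorticoid and androgen target, had a log2 fold change of -0.30 (adjusted p = 0.65). Among 17 steroid-converting enzymes and sex steroid receptors (median -0.12), none was called and HSD17B12 alone had an unadjusted p under 0.05 (-0.65, adjusted p = 0.196). The estrogen receptor ESR1 had -0.25 (adjusted p = 0.58).

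Adipocyte markers (15 tested, median 0.14), lipolysis genes and their receptors (16, median -0.10) and inflammatory cytokines and chemokines (17, median -0.02) held no called gene, and at an unadjusted p under 0.05 only PNPLA3 of these lists differed. The 16 immediate early genes respond within minutes to stress or handling. They had a median of -0.83, with 7 lower at an unadjusted p under 0.05, against 12.1% of all genes, and none called. Their list mean spread widely in WSD, from 2.89 to 5.75 log2 CPM, with an SD of 1.09 against 0.27 in T + WSD. FOSL2 had -1.45 (adjusted p = 0.0833), MYC -1.12 (adjusted p = 0.0737) and JUNB -1.27 (adjusted p = 0.102).

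The same implants were given to animals on chow, and T against C shares no library with T + WSD against WSD. Of the 66 genes that rose under the diet, 24 had a positive log2 fold change in T against C, with a median of -0.07 compared with 0.98 under the diet. Of the 58 that fell, 26 had a negative one, with a median of 0.04 compared with -0.85. Over all genes, 53.9% had the same sign in both comparisons. In T against C, 17 of the 124 genes had an unadjusted p under 0.05, compared with 1312 of all 15207. TTN had a log2 fold change of 0.20 ± 0.34 (SE) on chow, RYR2 0.03 ± 0.43 and FTL 0.10 ± 0.14. AACS (-0.94 ± 0.44) and ACLY (-1.33 ± 0.62) had negative values on chow as well.

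**Figure D5:**
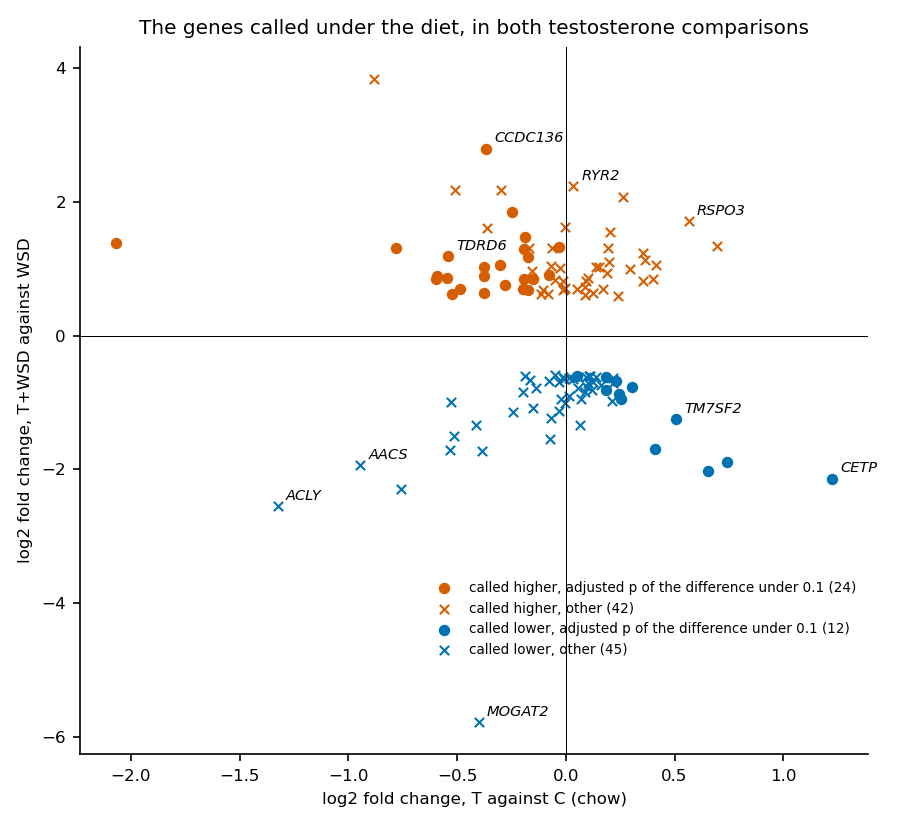
The genes called in T+WSD against WSD, with their log2 fold change in T against C on the horizontal axis and in T+WSD against WSD on the vertical axis; filled points had an adjusted p under 0.1 for the difference of the 2 effects and crosses did not, and the called gene with no counts in the T+WSD libraries is not drawn. The points spread to both sides of 0 on the horizontal axis, while CETP and TM7SF2 lie at the right below the horizontal line.

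Whether the effect of testosterone under the diet differed from that on chow was tested as an interaction in the same fit, and 123 genes passed at an adjusted p under 0.1 (0.809% of those tested). They included 36 of the 124 called genes, or 29.0%, of which 24 were higher and 12 lower in T + WSD. This share is not independent of the call, since the interaction uses the same T + WSD and WSD libraries. CETP had the largest such difference among the named genes that passed: its mean was 10.8 CPM in C and 25.3 CPM in T, a log2 fold change of 1.23 ± 0.49 (SE) with testosterone on chow, so that the effects differed by -3.36 (edgeR, adjusted p = 0.0417). TM7SF2 went the same way, with 0.51 on chow and a difference of -1.75 (adjusted p = 0.0337). Among genes that rose under the diet, the difference was 3.16 for CCDC136 (adjusted p = 0.0465), 1.72 for TDRD6 (adjusted p = 0.0197), 1.05 for INPP5F (adjusted p = 0.0183) and 0.99 for ABCC5 (adjusted p = 0.0337). For RYR2 (2.20, adjusted p = 0.127), FTL (0.75, adjusted p = 0.111), TTN (1.34, adjusted p = 0.223) and RSPO3 (1.14, adjusted p = 0.277) the difference did not pass in edgeR's test. This fit therefore did not show that their effects on the 2 diets differed. In the study's own DESeq2 test of the interaction, RYR2 and FTL did pass at an adjusted p under 0.1, so the result for these genes depends on the method. The same holds for DDT, PHB2 and CCT8, which passed in the study and did not pass in edgeR's test here. Without WSD replicates 20 and 24, 17 genes passed edgeR's interaction test.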

How the data were processed

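Ribosomal RNA-depleted libraries were made by the authors from omental WAT and sequenced as single reads. Per the labels and the study's methods, reads were checked with FastQC 0.11.5, trimmed with Trimmomatic 0.36 and aligned to rheMac8 with STAR 2.5.2b, and the authors used DESeq2 1.18.1. The deposited file holds raw read counts, not normalized, with 1 column for each animal. The counting tool and its strand setting are not given in the sources used here, so overlapping, antisense and near-identical genes are uncertain. Gene symbols came from a table of identifiers that covered 81.6% of the tested genes, and 719 of the 924 gene symbols of the lists were tested. No genome of this build was used, so positions, sequences and promoter motifs are not given. Bisulfite data were not analysed here.

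Counts of all 24 libraries in 4 groups were normalized with TMM and fitted together with edgeR 4.0.16 in R 4.3.3 (filterByExpr with min.count 10 and min.total.count 15, quasi-likelihood F-test with robust=TRUE and legacy=TRUE, two-sided, Benjamini-Hochberg adjustment over all tested genes). Called genes changed by more than 1.5-fold at an adjusted p under 0.05, and the interaction used 0.1. Adjusted p values in the text are from this fit. List means are averages of log2 CPM with a prior count of 2. The pseudo-F used DESeq2 1.42.0 variance stabilization and the 500 genes of highest variance. The script was tested on simulated data. Libraries of the same group formed 60 pairs, none of them identical, and counts within a pair differed by far more than sampling noise (smallest chi-square per degree of freedom 33.9). Where all libraries of a group held no more than 3 counts of a gene, its fold change was left out.

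The comparison, gene lists and tests were chosen with earlier results of these data known. Among called genes that had a symbol and did not overlap between groups, the 12 that rose most and the 12 that fell most were named, as were every called gene in a list and up to 4 members of each list described with the smallest p. The results of some genes are not reported here, and counts over lists still include them. A few further genes are said to have been chosen after their values were seen. Alternatives were other scalings, filters and settings of edgeR, DESeq2, covariates, fewer libraries, other thresholds and each library left out in turn.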

Additional observations from a re-analysis of the deposited data

Results flagged for a closer look

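Dixon's criterion at its critical value of 0.625 flags about 1 in 20 groups by chance where values are independent and normally distributed. CPM need not be so and the groups share libraries, so the count below is not set against that rate. In 18 of 154 groups of 6 libraries tested (named genes and list means in WSD or T + WSD), 1 library stood far from the other 5 by this criterion. Among WSD libraries, these were CETP in replicate 20 (186.5 CPM, the others 33.8 to 85.6 CPM), AACS in replicate 24 (468.2 CPM, the others 69.7 to 213.3 CPM), MOGAT2 in replicate 21 (135.6 CPM, the others 0 to 1.46 CPM), RSPO3 in replicate 21 (12.95 CPM, the others 5.76 to 7.90 CPM) and the fatty acid uptake list in replicate 20 (mean log2 CPM 6.795, the others 6.359 to 6.495).

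Among T + WSD libraries, replicate 12 was highest for Metazoa_SRP (1.539 CPM), UQCRC2 (185.3 CPM, the others 155.5 to 158.0 CPM) and ACLY (583.6 CPM, the others 133.4 to 272.9 CPM), and for the mean log2 CPM of the respiratory chain (5.853), the MIF family and CD74 (5.686) and the chaperones and unfolded protein response (6.69). The same library was lowest for the androgen response list (4.886, the others 5.092 to 5.214). Replicate 8 was highest for CCDC136 (27.98 CPM, the others 3.26 to 11.7 CPM), the endothelial list (6.842) and lipolysis and its receptors (6.546). Replicate 7 was highest for PHB2 (46.35 CPM, the others 39.8 to 41.4 CPM) and the lysosome list (6.78), and replicate 10 for TTN (618.9 CPM, the others 305 to 405 CPM).

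The effect of testosterone under the diet differed from that on chow, by the interaction test of edgeR at an adjusted p under 0.1, for 7 of the genes chosen by the naming rule, besides genes outside it such as INPP5F and ABCC5. The log2 difference of the 2 effects was positive for CCDC136 (3.159, adjusted p = 0.0465), TDRD6 (1.723, adjusted p = 0.0197), GNRH1 (1.663, adjusted p = 0.0916) and TNFRSF25 (1.363, adjusted p = 0.0935). It was negative for CETP (-3.362, adjusted p = 0.0417), TM7SF2 (-1.752, adjusted p = 0.0337) and COQ6 (-0.9878, adjusted p = 0.0974).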

How the results depend on the processing

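The 124 called genes kept their signs in all of the 38 alternative settings in which they were tested, though stricter count filters removed some of them. These settings refit the libraries, or part of them, from which the genes were selected. The kept signs are therefore no independent support. Of the 124, 118 were also called by DESeq2, but the number of calls varied. It was 68 without a filter on low counts, 46 when only the 12 libraries were fitted (42 higher, 4 lower), 431 with DESeq2 (244 higher, 187 lower), 254 without the fold threshold and 53 at a fold over 2. With the mesothelial list mean as a covariate it was 1 (1769 genes at an unadjusted p under 0.05). In the 16 libraries where ENSMMUG00000038258 took no more than 5% of the counts it was 0 by edgeR (1911). This set was defined from the counts, since the labels name no batch. Chosen after the data were seen, leaving out WSD replicates 20 and 24 gave 0 (1746) and the 8 libraries above 5% gave 0 (926). Leaving out each library in turn gave 9 to 448 calls: 189 without C replicate 1, 19, 448, 65 and 9 without WSD replicates 20, 21, 23 and 24, and 22, 21, 32, 23, 39 and 72 without T + WSD replicates 7 to 12. Upper-quartile scaling gave 106 calls, 79 higher and 27 lower (74.5% higher, against 53.2%), and moved the median of all genes by up to 0.06. The interaction count of 123 (64.2% positive) became 38 without the filter, 2 in the 16 libraries at no more than 5%, 483 with DESeq2, 44 at an adjusted p under 0.05, 17 without WSD replicates 20 and 24, and 40 (without T replicate 15) to 527 (without WSD replicate 21) with 1 library left out. Its positive share was 84.5% with upper-quartile scaling and 76.8% with DESeq2's size factors. The pseudo-F was 1.54 on log2 CPM (exact permutation p = 0.115), and 1.71 to 3.15 with 1 library left out, the lowest without WSD replicate 24 (exact permutation p = 0.0714). Over named genes and settings, 6129 values kept their status as called or not called, 474 lost a call, 111 gained a call and 0 reversed. A changed sign was counted as reversed only for genes called in the main fit or in the setting. The cause of these changes was not tested. No paired analysis was possible because the 2 groups share no replicate numbers. Depth limits the genes with few counts most in T + WSD replicates 7 and 8 and WSD replicates 19 and 20, which held the fewest counts once ENSMMUG00000038258 is set aside.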

Other observations

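Several gene groups not described above held no gene called by edgeR in T + WSD against WSD, and members with an unadjusted p under 0.05 are given here as values. Of 10 adipokines (median log2 fold change -0.38), NRG4, a growth factor secreted by fat, had -1.23 (adjusted p = 0.0539) and RARRES2, which encodes chemerin, had -0.80 (adjusted p = 0.0703). Of 15 matrix proteases and inhibitors (median 0.01), the metalloproteinases MMP7 (3.21, adjusted p = 0.0637) and ADAMTS5 (1.06, adjusted p = 0.101) were at higher values, and MMP19 (-0.84, adjusted p = 0.11) at a lower one. The 24 collagens and matrix genes had a median of -0.04, with COL12A1 at 0.61, COL6A6 at -1.02 and COL8A1 at -1.05.

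Among the 20 adipogenic transcription factors (median -0.02), CEBPD (-1.22, adjusted p = 0.124), GATA6 (-0.67, adjusted p = 0.169) and WT1 (-0.73, adjusted p = 0.211), which is also a mesothelial marker, had an unadjusted p under 0.05. Of 20 insulin signalling and glucose transport genes (median -0.10), these were PIK3CA (0.32), IRS1 (-0.47), AKT1 (-0.20) and the glucose transporter SLC2A3 (-0.60). Of 12 smooth muscle and pericyte markers (median 0.10), TAGLN had 1.02 (adjusted p = 0.0502) and MYH11 had 0.87 (adjusted p = 0.211), and of 14 endothelial markers (median 0.25), PECAM1 had 0.45 and ROBO4 had 0.48. Of the 3 pancreas and liver genes tested, ALB, serum albumin, had 0.0407 to 1.49 CPM in WSD and 0 to 34.3 CPM in T + WSD (4.23, adjusted p = 0.0656). No gene of the 15 fibroblast and progenitor markers, the 16 circadian clock genes, or the 11 markers of T or NK lymphocytes had an unadjusted p under 0.05.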
